A study of Homo sapiens with 18 samples.

Results

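The response of SJSA-1 cells to Nutlin was measured by RNA sequencing in 6 libraries, 3 from cells given 20 µM Nutlin for 6 h (Nutlin 1 to 3) and 3 from cells given the solvent dimethyl sulfoxide (DMSO 1 to 3). These are the samples titled Nutlin and DMSO, 6 of the 18 in the series. SJSA-1 is a human osteosarcoma cell line with amplified MDM2 and CDK4 genes, and neither group received another drug. The treatment was given in a single cell line, and the study's scheme lists a further, lower Nutlin concentration beside the labelled 20 µM. A second pair of groups was used in 1 place only, as described there: cells kept in the CDK4/6 inhibitor PD0332991 (Palbociclib) at 10 µM for 30 h, without Nutlin (PD30) or with 20 µM Nutlin for 6 h (N+PD30), 3 libraries each. The study describes the libraries of each group as biological replicates, and the labels say nothing further of their origin.

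The transcription factor p53 is held at low levels by MDM2, an E3 ubiquitin ligase that p53 itself induces. Nutlin occupies the pocket of MDM2 that binds p53, so that p53 accumulates without damage to DNA. Known targets of p53 arrest the cell cycle through the CDK inhibitor p21, prepare apoptosis, repair DNA and limit p53 again. Genes of the dividing cell fall later and indirectly: p21 keeps the retinoblastoma family active, and complexes of these proteins with E2F factors and MuvB sit on E2F sites and on CHR elements of cell cycle promoters.

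Between 28836321 and 33004047 reads were counted on genes in the DMSO libraries, and between 27137933 and 30515707 in the Nutlin libraries. Replicates differed by more than the sampling noise of their counts. The mesenchymal markers VIM, FN1 and COL1A1 were abundant, and all 7 mesenchymal markers exceeded 3 counts in every library. Of 7 osteoblast markers, RUNX2, ALPL, SPARC and SPP1 did so, whereas SP7, BGLAP and IBSP never exceeded 6 counts. Globin genes HBB and HBA1 had at most 1 count. Fewer cells of a kind and less RNA per cell cannot be told apart in such bulk samples. Levels are given as CPM, a gene's counts per 1000000 counts of its library after TMM scaling.

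Nutlin changed the level of a large part of the genome in both directions. Of 15766 genes tested with edgeR's quasi-likelihood test, 1950 (12.4%) were called higher and 1327 (8.42%) were called lower, where a call needs a change of more than 1 on the log2 scale together with a p under 0.05 after Benjamini-Hochberg adjustment. With the adjusted p alone, 4198 genes (26.6%) were higher and 4416 (28.0%) were lower under TMM scaling. That small difference was not examined with the other scalings, which moved the median as given below. The median log2 fold change was 1.87 among the genes called higher and -1.34 among those called lower. Changes beyond 2 on the log2 scale numbered 896 upwards and 155 downwards. The 3 Nutlin libraries all lay above the 3 DMSO libraries for 29.7% of the genes tested and all below for 32.0%, and this held for 1919 of the genes called higher and 1320 of those called lower. The median log2 fold change over all genes was 0.03, and it moved by -0.13 when libraries were scaled by total counts and by 0.11 with upper-quartile scaling. MDM2 RNA alone took 0.251% to 0.267% of the counts in DMSO libraries and 1.97% to 2.82% in Nutlin libraries.

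Genes called higher had a median level of 0.402 CPM in DMSO and 1.77 CPM in Nutlin, and genes called lower had 14.1 CPM in DMSO and 5.29 CPM in Nutlin. The genes tested were split by mean level over the 6 libraries into 4 classes of equal size. In the lowest class, 35.8% were called higher and 7.66% lower. In the second class the order turned, with 9.41% higher and 14.8% lower, and in the class above it 2.21% were higher and 9.11% lower. In the highest class, 2.08% were higher and 2.05% lower. Genes of the lowest class can pass the count filter through the group in which they are high, so these shares are no measure of how direction follows level. Of the 1410 genes called higher in that class, 261 lay at or under 3 counts in every DMSO library. The number of genes with more than 3 counts was 16083 to 16359 in DMSO libraries and 17385 to 17551 in Nutlin libraries. In all, 667 genes lay at or under 3 counts in every DMSO library and above 3 in every Nutlin library, whereas 28 genes showed the reverse.

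CDKN1A, which encodes p21, had the largest rise in the highest level class. It lies at chr6:36644237-36655114 (hg19, plus strand; ENSG00000124762). Its level was 208.9, 183.4 and 136.8 CPM in the DMSO libraries and 4064, 4429 and 4006 CPM in the Nutlin libraries. All Nutlin libraries lay far above all DMSO libraries, with a log2 fold change of 4.56 (SE 0.163, adjusted p = 1.65e-07). MDM2, at chr12:69201957-69239324 on the plus strand (ENSG00000135679), closes the feedback loop of p53. It stood at 2396, 2498 and 2545 CPM in DMSO and at 29670, 22270 and 20010 CPM in Nutlin. The log2 fold change was 3.27 (SE 0.151, adjusted p = 5.45e-07), and library Nutlin 1 was the highest.

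The list of arrest and feedback targets had 22 genes tested, of which 11 were called higher and none lower, and the median change was 0.96 on the log2 scale. With the adjusted p alone, 18 were higher and 2 lower. SESN1, a sestrin that restrains mTORC1, was at 17.7, 19.9 and 18.6 CPM in DMSO and at 161.7, 128.3 and 114.6 CPM in Nutlin. BTG2, an antiproliferative cofactor of the CCR4-NOT deadenylase, had a log2 fold change of 2.51 (SE 0.127, adjusted p = 9.14e-07). Both genes were separated between the groups without overlap.

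Among 23 apoptosis genes, 13 were called higher and 1 lower, with a median of 1.02. TP53I3, an oxidoreductase gene, was at 25.4, 26.1 and 19.8 CPM in DMSO and at 240.8, 250.3 and 206.6 CPM in Nutlin. BBC3, which encodes the BH3-only protein PUMA, was at 4.02, 2.27 and 1.63 CPM in DMSO and at 12.67, 17.15 and 24.29 CPM in Nutlin, a log2 fold change of 2.76 (SE 0.327, adjusted p = 8.32e-05). Both death receptor genes for TRAIL were called higher: TNFRSF10B went from 329.8 ± 11.5 to 1167 ± 13 CPM (SD, n = 3), and TNFRSF10A from 0.336 ± 0.117 to 2.57 ± 0.637 CPM. PIDD, the gene of a death domain adaptor, had a log2 fold change of 2.88. TP53BP2, whose product ASPP2 binds p53, was the member called lower, with 73.1 ± 7.39 CPM in DMSO and 34.9 ± 1.32 CPM in Nutlin. PMAIP1, the gene of the BH3-only protein NOXA, was chosen after its values were seen because it went against the list: 53.1, 54.2 and 54.9 CPM in DMSO and 31.9, 26.8 and 32.6 CPM in Nutlin, a log2 change of -0.83 (adjusted p = 0.000122), short of the fold threshold.

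The other p53 lists also had medians above 0. Of 11 DNA repair targets 5 were called higher and none lower, with a median of 0.72. The nucleotide excision repair gene DDB2 went from 32.0 ± 0.718 to 147.6 ± 3.39 CPM, XPC of the same pathway from 59.9 ± 3.11 to 191.8 ± 13.4 CPM, and RRM2B, a ribonucleotide reductase subunit, from 67.4 ± 1.86 to 304.0 ± 37.9 CPM (SD, n = 3 throughout). Among 24 genes of metabolism and redox control, 9 were called higher and 1 lower. FDXR, ferredoxin reductase, was at 17.0, 15.3 and 10.98 CPM in DMSO and at 161.5, 230.9 and 206.5 CPM in Nutlin (log2 fold change 3.79, SE 0.187). CYFIP2, a subunit of the WAVE complex, had the smallest adjusted p among the genes named here, 9.78e-08, at a log2 fold change of 3.35. TXNIP, an inhibitor of thioredoxin, ran against them with 30.6, 21.1 and 28.5 CPM in DMSO and 12.2, 5.59 and 8.75 CPM in Nutlin (log2 fold change -1.60, SE 0.250, adjusted p = 0.000456). Of 21 secreted and surface targets, 9 were called higher and none lower. GDF15, a stress cytokine, was at 39.5, 48.1 and 28.9 CPM in DMSO and at 431.5, 997.3 and 814.6 CPM in Nutlin, so that Nutlin 1 was the lowest of the treated libraries and still far above DMSO. These lists hold genes known as p53 targets from other cells, and they were compiled with earlier results of these data known.

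**Figure D1:**
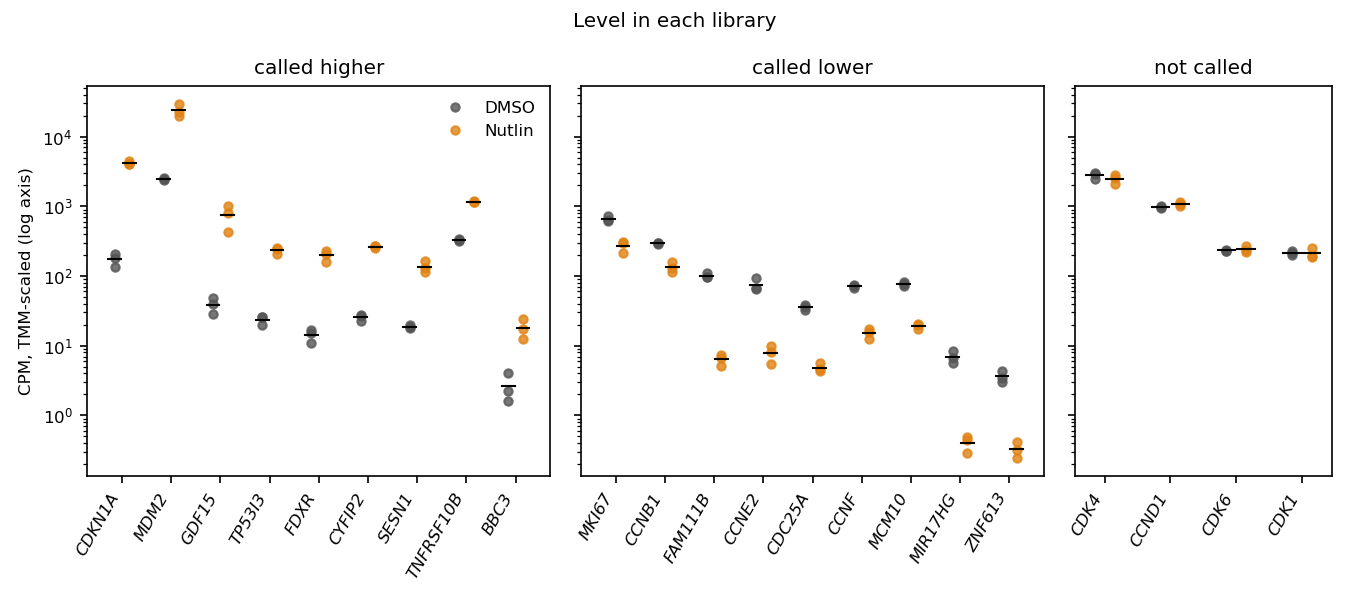
Levels in each of the 6 libraries (CPM, TMM-scaled, log axis) for 9 genes called higher, 9 called lower and 4 not called; dots are libraries and black bars are the means of 3. The groups did not overlap for any gene in the first 2 panels, and they overlapped for CDK4, CCND1, CDK6 and CDK1 in the last.

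The largest rises came from genes that were nearly silent in DMSO, and those named here are the 10 largest among called genes with a mean of at least 100 counts in Nutlin. LAD1, which encodes the basement membrane protein ladinin, had 0 counts in every DMSO library and 87, 115 and 124 counts in the Nutlin libraries. Against the detection floor of 3 counts per library, its mean was at least 41.9-fold higher. CLCA2, encoding a membrane protein of epithelia, had 0, 0 and 1 counts in DMSO and 450, 327 and 193 in Nutlin, at least 123-fold higher. TRIM55, a RING-finger gene of striated muscle, had 0, 1 and 2 counts against 491, 577 and 332, at least 178-fold higher. TREM2, a receptor of myeloid cells, had 2, 0 and 1 counts against 270, 236 and 107, at least 77.7-fold higher. No value of a Nutlin library came near DMSO for any of these 4 genes. In all, 264 genes at or under 3 counts in every DMSO library were called higher, and 4 genes at or under 3 counts in every Nutlin library were called lower. Such genes pass the count filter only through the other group, so the direction of their calls was nearly fixed in advance. TBX4, the gene of a hind limb T-box factor, passed the floor in 1 DMSO library and rose from 0.0703 ± 0.0418 to 14.3 ± 1.44 CPM. The other 5 of the 10 largest rises were ZNF300P1, CATSPERD, ZNF605, SHISA7 and KRT78, with log2 fold changes of 6.73 to 7.46.

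Several of these genes belong to epithelia, a lineage that SJSA-1 does not represent. Of 26 genes for epithelial junctions and keratins, 9 (34.6%) were called higher and none lower, with a median of 0.51. The share called higher was 12.4% over all genes tested and 35.8% in the lowest level class. By sign, 18 of the 26 lay above 0 and 8 below, and by the adjusted p alone 12 were higher and 4 lower. PKP1, the desmosomal plakophilin, had 0 counts in all DMSO libraries and 69, 95 and 106 counts in the Nutlin libraries. OVOL1, an epithelial transcription factor, had 1, 0 and 0 counts in DMSO and 39, 49 and 56 in Nutlin. Of 18 keratin genes, 9 were called higher and none lower. KRT4, chosen after its values were seen, was at 0.434, 0.301 and 0.432 CPM in DMSO and at 29.1, 19.04 and 25.8 CPM in Nutlin. The defining epithelial markers, in CPM of the library total without TMM scaling, differed in direction: EPCAM had 0.671 CPM in DMSO and 0.784 in Nutlin, CDH1 0.415 and 1.21, KRT8 11 and 25.6, and KRT18 211 and 141 CPM. KRT19 had at most 5 counts. KRT18 made up most of their sum. The summed level of the 5 epithelial markers was 191 to 264 CPM in DMSO and 159 to 186 CPM in Nutlin.

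Markers of unrelated lineages lay at low levels, but some were detected in every library. The summed level of 3 endothelial markers was 1.85 to 3.04 CPM in DMSO libraries and 6.19 to 8.29 CPM in Nutlin libraries. VWF had 42 to 182 counts and PECAM1 18 to 71, with CDH5 at no more than 1 count. That of 3 neural markers (GFAP, RBFOX3 and SYP) was 1.63 to 1.97 CPM and 5.08 to 5.31 CPM. For 5 leukocyte markers the ranges overlapped, 21.6 to 31.9 CPM against 28.5 to 33.5 CPM, and CD3E had at most 1 count. The ranges overlapped too for 3 melanocyte markers, 1.21 to 1.87 CPM against 1.80 to 1.97 CPM. MLANA had 28 to 49 counts and PMEL 7 to 18, with TYR at 0 counts. The 3 erythroid markers summed to no more than 0.164 CPM in any library. The part of such low-level rises in the counts of genes called higher was not tested.

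Noncoding transcripts were called higher at a larger share than coding genes. Of 385 annotated long noncoding RNAs, 32.2% were called higher and 3.12% lower, against 10.7% and 8.75% of 14222 protein-coding genes. Transcripts named as LOC or LINC numbered 690, of which 228 were called higher and 16 lower, and the median change was 0.61 on the log2 scale. Of 198 pseudogenes, 24.7% were called higher, and of 94 transcripts named as antisense, 37.2%. The counts cannot separate a noncoding transcript from an overlapping gene, because whether the kit kept the strand is not given in the sources used here. Their median level of 1.20 CPM in DMSO placed the long noncoding RNAs among the genes of low abundance, where rises were frequent in any case. TP53TG1, a noncoding transcript named as a p53 target, rose from 6.75 ± 1.28 to 24.1 ± 3.21 CPM, and PVT1, a neighbour of MYC, from 8.47 ± 0.836 to 29.9 ± 1.44 CPM.

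The largest fall among all genes tested was that of MIR17HG, the host transcript of the miR-17-92 cluster. It lies at chr13:91999940-92049846 (hg19, plus strand). Its level was 6.74, 5.68 and 8.42 CPM in DMSO and 0.483, 0.285 and 0.449 CPM in Nutlin, a log2 fold change of -4.09 (SE 0.261, adjusted p = 2.84e-06). The gene row of miR-34a went the other way: MIR34A had 2, 3 and 0 counts in DMSO and 22, 24 and 20 in Nutlin, at least 8.44-fold higher. Libraries of this kind count fragments of precursors and host transcripts, not mature microRNAs. Of the 14 mature sequences listed for the 2 loci, 7 follow, 1 arm for each microRNA, 5′ to 3′ from RefSeq (GRCh38.p14), because they are the products through which these transcripts act; capitals mark the seed, bases 2 to 8.

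hsa-miR-34a-5p: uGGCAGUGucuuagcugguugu
hsa-miR-17-5p: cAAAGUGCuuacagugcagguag
hsa-miR-20a-5p: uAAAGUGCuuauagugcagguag
hsa-miR-18a-5p: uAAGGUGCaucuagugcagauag
hsa-miR-19a-3p: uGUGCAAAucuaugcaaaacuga
hsa-miR-19b-3p: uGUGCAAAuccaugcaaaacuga
hsa-miR-92a-3p: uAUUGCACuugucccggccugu

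The 6 arms shown for the cluster carry 4 seeds: miR-17 and miR-20a share AAAGUGC, miR-19a and miR-19b share GUGCAAA, and miR-18a and miR-92a have a seed each. miR-34a, known as a p53-induced microRNA that represses cell cycle genes, shares its seed with none of them. The mature microRNAs of the cluster lie between chr13:91350618 and chr13:91351382 on the plus strand of GRCh38.p14, and miR-34a-5p at chr1:9151735-9151756 on the minus strand.

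Regulators of the G1/S transition held several of the largest falls. Of 27 G1/S cyclins and E2F factors, 9 were called lower and none higher, 18 were lower by the adjusted p alone, and the median change was -0.60 on the log2 scale. CCNE2, a cyclin that activates CDK2, was at 67.8, 64.7 and 92.3 CPM in DMSO and at 8.18, 5.52 and 9.94 CPM in Nutlin (log2 fold change -3.25, SE 0.216, adjusted p = 3.54e-06), although 37% of its exon bases are shared with INTS8 on the opposite strand. CCNE1, the other E-type cyclin and chosen after its values were seen, was at 19.2, 19.9 and 21.2 CPM and at 3.59, 4.02 and 3.96 CPM. CDC25A, the phosphatase that activates CDK2, was at 32.0, 36.1 and 38.2 CPM in DMSO and at 4.63, 4.27 and 5.61 CPM in Nutlin. E2F8, an atypical E2F repressor, and E2F5 had log2 fold changes of -3.02 and -2.86. Of the D-type side of the transition, only the genes that the study follows are given here, and none of them was called. CDK4 stood at 2428, 2944 and 3014 CPM in DMSO and at 2069, 2565 and 2781 CPM in Nutlin (log2 difference -0.18, 95% interval -0.46 to 0.11). CDK6 differed by 0.05 and CCND1, cyclin D1, by 0.13 on the log2 scale, and their groups overlapped. Of the exon bases of CDK4, 44.2% are shared with TSPAN31 on the opposite strand.

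DNA replication genes followed. Of 56 genes for replication origins and forks, 20 were called lower and none higher, and 43 were lower by the adjusted p alone, with a median of -0.74. GINS3, part of the replicative helicase, was at 21.4, 21.6 and 21.0 CPM in DMSO and at 4.97, 5.09 and 4.93 CPM in Nutlin. MCM10 went from 77.3 ± 5.57 to 19.1 ± 1.70 CPM, the checkpoint adaptor CLSPN from 86.5 ± 9.48 to 22.7 ± 2.57 CPM, and the origin recognition subunit ORC1 from 36.2 ± 3.64 to 10.6 ± 0.599 CPM. PCNA, the sliding clamp and a known p53 target, was chosen after its values were seen: 242.9, 266.5 and 300.3 CPM in DMSO and 337.8, 301.6 and 291.7 CPM in Nutlin, with overlapping groups (adjusted p = 0.121). Of 24 genes of nucleotide synthesis, 3 (12.5%) were called lower (UMPS, GMPS and PPAT) and none higher, against 8.42% of all genes called lower. Their median was -0.19, and it was -0.32 with total counts and -0.09 with upper-quartile scaling. In homologous recombination and the Fanconi anemia pathway, 12 of 40 genes were called lower and 1 higher. The nuclease gene EXO1 fell by 2.16 and BARD1, the partner of BRCA1, by 2.13 on the log2 scale. RAD51C, a gene of homologous recombination, was the exception with 45.4 ± 4.27 CPM in DMSO and 91.2 ± 7.41 CPM in Nutlin (log2 fold change 1.01), close to the threshold.

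Mitotic genes were lower across most of their list. Of 39 mitotic kinases, cyclins and their regulators, 17 were called lower and none higher, and 33 were lower by the adjusted p alone. The median was -0.84 over the list, and -0.82, -0.98 and -0.81 in the libraries Nutlin 1, 2 and 3 taken singly, on log2(CPM + 0.5). FBXO5, the inhibitor of the anaphase-promoting complex, was at 53.04, 54.7 and 62.7 CPM in DMSO and at 14.0, 9.57 and 12.6 CPM in Nutlin. CCNF, cyclin F, went from 71.2 ± 2.95 to 15.2 ± 2.50 CPM. CCNB1, the mitotic cyclin B1, was among the most abundant genes called lower, at 283.8, 299.2 and 302.7 CPM in DMSO and at 157.0, 112.9 and 130.3 CPM in Nutlin (log2 fold change -1.15, SE 0.118). Its partner CDK1, chosen after its values were seen, was not called: 201.4, 214.5 and 228.4 CPM in DMSO and 252.6, 191.9 and 190.4 CPM in Nutlin, a log2 difference of -0.02 (95% interval -0.29 to 0.24).

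Structural parts of the mitotic machinery were called lower at shares that differed by list, against 8.42% of all genes. The shares were 27.7% for the kinetochore, 38.6% for cytokinesis, 27.0% for kinesins and 17.9% for chromatin genes. Of 47 kinetochore and spindle checkpoint genes, 13 were called lower and none higher. HJURP, the chaperone that loads the centromeric histone, and CENPA, that histone, had log2 fold changes of -1.91 and -1.81. Of 44 genes of cytokinesis and the spindle, 17 were called lower and none higher, with a median of -0.81. Of 37 kinesins, 10 were called lower, led by KIF21B and KIF18A, and 3 higher, led by KIF26B with 1.30 ± 0.172 CPM in DMSO and 5.83 ± 1.15 CPM in Nutlin. Of 28 chromatin genes of dividing cells, 5 were called lower and none higher. UHRF1, which guides maintenance methylation of DNA, went from 184.7 ± 27.3 to 46.1 ± 9.0 CPM. MKI67, the proliferation marker Ki-67, was the most abundant gene called lower, at 612.9, 631.9 and 720.6 CPM in DMSO and at 305.2, 213.1 and 296.8 CPM in Nutlin. FAM111B, a protease gene of replicating cells, had a far larger change, with 95.7, 96.1 and 110.0 CPM in DMSO and 6.73, 5.09 and 7.33 CPM in Nutlin (log2 fold change -3.98, SE 0.147).

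Some promoters of these genes carry the elements that the background names, and the shares are described here without a test. RefSeq windows of 250 bases before to 50 after the start were matched for 11765 of the genes tested. On either strand, a CCAAT box (CCAAT) was held by 36.6% of these promoters and by 35.7% of all 27305 promoters in the table. A CHR element (TTTGAA or TTCGAA) was held by 11.8% and 16.6%, and an E2F site (TTTGGCGC, TTTCGCGC, TTTCCCGC or TTTGCCGC) by 5.04% and 3.33%. Among promoters of all genes called lower, the shares were 42.8%, 13.1% and 7.09%, and among those of genes called higher 34.1%, 14.8% and 2.24%. CHR elements and E2F sites differed more between the lists than between called and uncalled members, and the CCAAT box did not. In the mitotic lists a CCAAT box was held by 59.0% of promoters of genes called lower and 65.7% of those not called, and in the G1/S and replication lists by 62.5% and 46.5%. In the lists of mitotic kinases, kinetochore and cytokinesis, a CHR element was held by 23 of 39 promoters of genes called lower (59.0%) and by 35 of 67 of those not called (52.2%). In the G1/S and replication lists, an E2F site was held by 10 of 24 promoters of genes called lower (41.7%) and by 15 of 43 of those not called (34.9%). Genes called lower outside all cell cycle lists had shares near those of all genes, 10.8% for CHR elements and 5.84% for E2F sites. The p53 consensus decamer was held by 6.95% of promoters of genes called higher, 4.76% of those called lower and 5.51% of all those matched. A TATA box (TATAAA) was held by 10.7%, 5.53% and 6.34%.

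The 120 bases before the start of 7 genes are shown, 3 mitotic genes and 3 genes with E2F sites, all called lower, and FDXR, called higher. Every gene shown as called lower holds a CHR element or an E2F site, so these are examples and no measure of how frequent the elements are. The bases are from RefSeq (GRCh38.p14), read 5′ to 3′ on the strand of the gene. Capitals mark CCAAT boxes, CHR elements, E2F sites and p53 decamers on either strand, and in CDCA8 and MKI67 a CHR element shares its last base with a reversed CCAAT box.

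CDCA8 at chr1:37692396-37692515, plus strand: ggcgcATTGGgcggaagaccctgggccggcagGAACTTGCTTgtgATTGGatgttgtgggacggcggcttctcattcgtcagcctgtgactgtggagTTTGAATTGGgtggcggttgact
MKI67 at chr10:128126424-128126543, minus strand: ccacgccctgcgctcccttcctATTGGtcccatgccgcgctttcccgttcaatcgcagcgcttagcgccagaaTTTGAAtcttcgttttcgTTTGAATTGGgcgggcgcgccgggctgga
KIF18A at chr11:28108157-28108276, minus strand: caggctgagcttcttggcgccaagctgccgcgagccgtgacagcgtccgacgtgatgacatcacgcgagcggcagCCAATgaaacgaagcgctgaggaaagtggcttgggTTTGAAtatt
CDC25A at chr3:48188418-48188537, minus strand: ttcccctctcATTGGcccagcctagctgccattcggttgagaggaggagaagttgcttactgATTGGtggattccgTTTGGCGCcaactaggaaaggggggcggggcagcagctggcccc
CDCA7 at chr2:173354752-173354871, plus strand: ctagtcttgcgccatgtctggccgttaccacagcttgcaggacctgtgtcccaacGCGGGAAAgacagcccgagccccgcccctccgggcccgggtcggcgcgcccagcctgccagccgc
ZNF367 at chr9:96418371-96418490, minus strand: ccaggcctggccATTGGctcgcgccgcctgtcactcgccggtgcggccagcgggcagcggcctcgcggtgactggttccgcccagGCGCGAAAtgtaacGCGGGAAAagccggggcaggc
FDXR at chr17:74872995-74873114, minus strand: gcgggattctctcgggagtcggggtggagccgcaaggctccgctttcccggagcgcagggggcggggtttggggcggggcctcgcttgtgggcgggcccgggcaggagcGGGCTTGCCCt

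The repressed side was wider than the cell cycle, and zinc-finger genes formed its largest named family. Most of them encode DNA-binding repressors with arrays of C2H2 fingers. Of 513 tested, 160 (31.2%) were called lower and 27 (5.26%) higher. The median change was -0.61 on the log2 scale, and 300 were lower by the adjusted p alone. Within the 2 middle level classes, 33.2% of 343 coding zinc-finger genes were called lower against 11.4% of 7035 other coding genes. On chromosome 19, which holds large clusters of them, 84 of 226 were called lower (37.2%), and elsewhere 75 of 270 (27.8%). ZFP37 was at 3.27, 2.98 and 3.48 CPM in DMSO and at 0.207, 0.214 and 0.150 CPM in Nutlin. ZNF613 was at 3.01, 4.38 and 3.48 CPM and at 0.242, 0.320 and 0.411 CPM. ZNF367, at -3.22 on the log2 scale, and ZNF48, at -2.93, were the other zinc-finger genes among the 10 largest falls, which also held the RNA-binding protein gene MEX3A (-3.13) and SPSB4 (-3.11), whose product has a SOCS box. The family was not uniform, since 27 were called higher and the coding gene ZNF605 was among the largest rises. ZNF300P1, another of those rises and matched by name, is annotated as a long noncoding RNA.

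Genes of few exons were called lower more often, a split chosen after values were seen. Of protein-coding genes with 1 exon in the canonical transcript 19.2% were called lower, with 2 exons 21.0% and with 3 exons 16.3%. The share was 8.28% for 6 to 10 exons and 3.59% for more than 20 exons. Within the second level class the shares were 27.5%, 29.6% and 26.7% for 1, 2 and 3 exons and 5.67% for more than 20. Without the zinc-finger genes, they were 19.4%, 21.5% and 15% over all levels. By the span of the gene, 12.1% of genes under 10 kb and 2.06% of those over 200 kb were called lower. The shares called higher lay between 9.36% and 13.2% in every class of exon number over all levels. Within the second level class, however, they were 6.59%, 6.4% and 5.26% for 1, 2 and 3 exons and 16.7% for more than 20. Small nucleolar RNAs, short guides of RNA modification that are mostly processed from introns, were also lower: of 74 tested, 27 were called lower (36.5%) and 3 higher, at levels near 1 CPM. SNORD88B, chosen after its values were seen, was at 1.01, 0.869 and 1.36 CPM in DMSO and at 0.104, 0.0356 and 0.150 CPM in Nutlin. All of its bases lie in exons of C19orf48 on the same strand, so its reads cannot be assigned to the snoRNA.

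**Figure D2:**
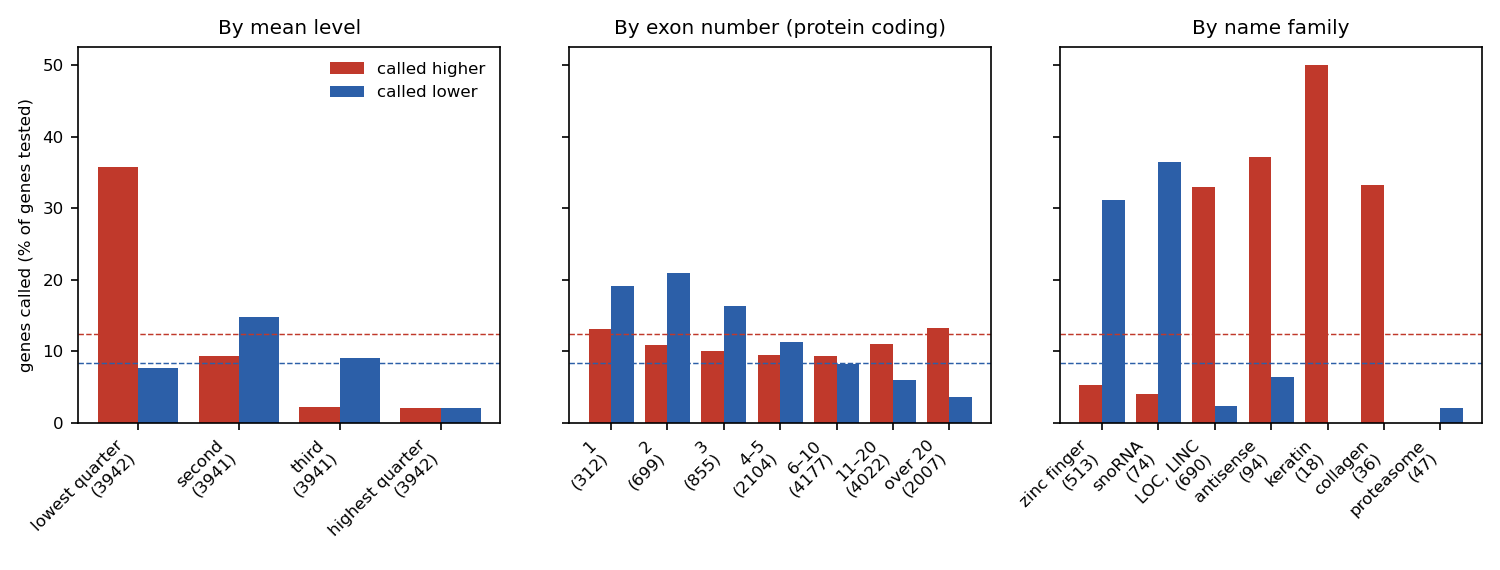
Share of genes called higher (red) and lower (blue) in Nutlin against DMSO, as percent of the genes tested in each class, by mean level in 4 classes, by exon number of protein-coding genes and by name family, with the number tested in parentheses and dashed lines at the shares over all genes (12.4% and 8.42%). Rises were concentrated in the lowest level class, whose genes can pass the count filter through the group in which they are high. Falls were concentrated in genes of 1 to 3 exons, zinc-finger genes and snoRNA genes.

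Some signalling and growth genes were called lower, in lists whose counts are to be read against the 8.42% of all genes called lower. MYC was at 40.9, 32.9 and 32.4 CPM in DMSO and at 6.52, 12.4 and 10.7 CPM in Nutlin (log2 fold change -1.85, SE 0.210, adjusted p = 6.45e-05), the 1 gene called of 14 in the MYC network. The median of that list was -0.00432, and its sign depended on the scaling. Of 63 ribosome biogenesis genes, 9 were called lower and none higher, and 44 were lower by the adjusted p alone, with a median of -0.47. Of 35 immediate-early and ERK response genes, 6 were called lower, among them FOS (log2 fold change -2.20) and NR4A1 (-1.41), and 2 higher, EGR3 (2.64) and FOSB (1.91). EGR3 had few counts, 8, 3 and 3 in DMSO and 19, 35 and 23 in Nutlin. Of 42 interferon response genes, 5 were called lower, led by IFIT2 (-1.88), and 2 higher, led by TRIM22, an antiviral gene known as a p53 target, with 97.0 ± 1.29 CPM in DMSO and 305.3 ± 25.3 CPM in Nutlin. TRIB3, a pseudokinase gene of the integrated stress response, went from 44.2 ± 14.5 to 10.9 ± 3.16 CPM, while SESN2 of the same list of 33 rose from 15.1 ± 2.69 to 39.9 ± 1.78 CPM. In the list of WNT and Hippo pathway genes and targets, 3 of 23 were called lower (SP5, LEF1 and AXIN1) and LGR5 higher. In the TGF-beta list of 25, BMP4 and TGFB3 (at most 23 counts in a library) were called lower and LTBP2 higher. The medians of these 2 lists lay at -0.04 and -0.06 and turned positive with upper-quartile scaling.

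Ribosomal protein genes moved little and in a single direction. None of 76 was called, but all 76 had a log2 fold change above 0, from 0.19 (RPL17) to 0.84 (RPS15), and 74 were higher by the adjusted p alone, with a median of 0.45. RPLP0, the reference gene of the study's quantitative PCR, was at 1295, 1415 and 1218 CPM in DMSO and at 1815, 1982 and 1602 CPM in Nutlin (log2 fold change 0.46, SE 0.105, adjusted p = 0.00428). The same held for 54 genes of oxidative phosphorylation, of which 52 were above 0 and 32 higher by the adjusted p alone (median 0.35), and for 21 genes of MHC class I presentation, with 20 above 0 and 15 higher (median 0.40). None of the genes of these 3 lists passed the fold threshold. The medians stayed above 0 with each scaling.

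The remaining lists held few calls or mostly rises. Their counts are to be read against the 12.4% of all genes called higher and the 8.42% called lower. The share called higher was below 12.4% in the matrix (6.82%), NRF2 (7.69%), osteoblast (7.14%), NF-kB (4.0%), glycolysis (3.85%) and cholesterol (4.0%) lists. In the condensin list, 11.5% were called lower. In the Notch pathway 5 of 24 genes were called higher, among them NOTCH1, with 35.1, 24.2 and 17.1 CPM in DMSO and 58.4, 128.7 and 92.2 CPM in Nutlin, HES2, and MFNG, a glycosyltransferase of Notch receptors with at most 2 counts in a DMSO library. In the same pathway 3 were called lower, led by NRARP, with at most 25 counts in a library. In the heat shock list 6 of 28 were called higher and none lower, led by HSPA4L, an HSP110-type chaperone gene, with 18.6, 22.3 and 19.7 CPM in DMSO and 175.8, 168.6 and 125.2 CPM in Nutlin. Of 36 genes whose names begin as collagens do, 12 were called higher and none lower. Of 44 matrix genes 3 were called higher, among them POSTN, the matricellular protein periostin, with a log2 fold change of 1.73. POSTN had few counts, 9, 11 and 6 in DMSO and 18, 15 and 42 in Nutlin. Of 26 NRF2 targets, ABCC2 and AKR1B10 were called higher. Of 14 osteoblast genes DLX3 was called higher and DLX5 and TNFRSF11B lower. In the NF-kB list of 25 only IL1B was called, in glycolysis only SLC2A12 of 26, with 51.2% of its exon bases shared with TBPL1, and in cholesterol synthesis only TM7SF2 of 25, all 3 higher. Of 26 genes of condensin, cohesin and topoisomerases, 3 were called lower and 17 were lower by the adjusted p alone, with a median of -0.39. On 12q13-15, the region of MDM2 and CDK4, 2 of 25 genes were called higher (MDM2 and AVIL) and 4 lower, led by METTL1, a tRNA methyltransferase gene, with 204.8 ± 8.68 CPM in DMSO and 70.5 ± 11.8 CPM in Nutlin.

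The called genes were then looked up in N+PD30 against PD30, where Nutlin was given to cells kept in PD0332991, with libraries that enter no value above. In that comparison, 480 of 15077 genes (3.18%) were called higher and 75 (0.497%) lower. Of the 1950 genes called higher by Nutlin alone, 277 were also called higher there, which is 14.2% of them and 57.7% of the 480. Of the 1327 called lower, 62 were also called lower, which is 4.67% of them and 82.7% of the 75. No gene called higher was called lower there, and 2 called lower were called higher. Of all those tested there, 1149 of 1342 (85.6%) were above 0 and 1110 of 1261 (88.0%) below, with medians of 0.49 and -0.41. The median over all genes tested there was -0.006. These genes were selected for large changes under Nutlin alone, so smaller changes here are no measure of a weaker response. Among those not called there, the counts were 872 of 1065 (81.9%) and 1048 of 1197 (87.6%). With the replicate number as a block in N+PD30 against PD30, 305 of 536 genes called higher there and 79 of 104 called lower there were called the same way by Nutlin alone, and 3 genes called lower by Nutlin alone were called higher there. CDKN1A had log2 fold changes of 4.56 without and 4.34 with PD0332991, MDM2 3.27 and 2.55, BTG2 2.51 and 4.62, and MYC -1.85 and -2.59. The mitotic kinase list had 17 of 39 called lower without and none of 36 called with PD0332991, and medians of -0.84 and -0.41. The difference between the 2 responses was not tested here. The smallest N+PD30 library had 12704845 counts, and leaving out single libraries moved the number called higher there between 284 and 669 and the number called lower between 34 and 125. Without PD30 1 both were at their lowest, and without N+PD30 3 both were at their highest.

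**Figure D3:**
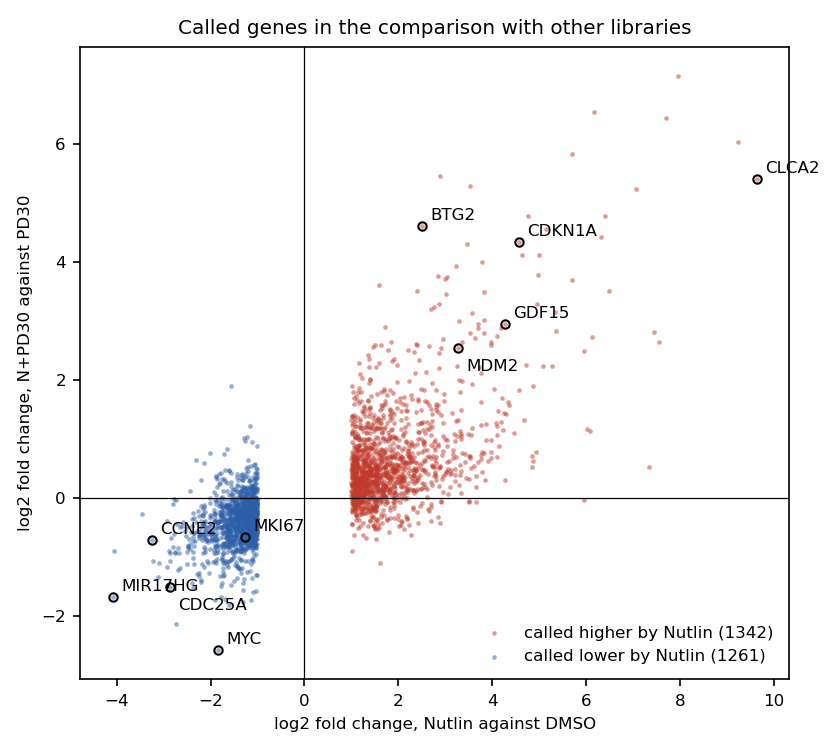
Genes called higher (red, 1342 tested in both) or lower (blue, 1261) in Nutlin against DMSO, by their log2 fold change there (x axis) and in N+PD30 against PD30 (y axis), which use separate libraries. Of the red points 85.6% lie above 0 on the y axis and of the blue points 88.0% below. Most lie closer to 0 than on the x axis, by which they were selected, so this is no measure of a weaker response.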

How the data were processed

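RNA was extracted from SJSA-1 cells and sequenced as single-end reads after TruSeq RNA LT library preparation. The authors aligned reads to hg19 with TopHat and Bowtie2 and counted them per gene with HTSeq 0.6.0, set to the reverse strand. The deposited values used here are whole-number read counts per gene, although the tables are named for variance-stabilized values. Authors' fold changes and p-values were not used.

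The DMSO and Nutlin columns came from 2 tables of 23368 gene rows and were joined by row, and 28 names had been turned into dates. Symbols of 21456 rows (91.8%) were placed on hg19. Genes were filtered by filterByExpr (minimum count 10, minimum total 15), scaled by TMM and tested with edgeR 4.0.16 (R 4.3.3), using quasi-likelihood fits without covariates and Benjamini-Hochberg adjustment over all genes tested. Every adjusted p in the text is from this test. Alternatives were DESeq2 1.42.0, other scalings, filters, thresholds, a replicate block and leaving out single libraries. Folds against groups at or under 3 counts in every library are bounds against that floor. Intervals and floors cover counting error or the spread between libraries only.

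Named genes were those the study follows, the 10 largest rises and falls among called genes with a mean of at least 100 counts in the higher group and separate groups, the 5 most abundant called genes in each direction, the 5 highest among those near silent in DMSO, up to 4 called members per list and the largest called opposite one. Further genes are marked as chosen after their values were seen, and some genes that meet these rules are not reported here. Members and lists were chosen with earlier results of these data known. Same-numbered PD30 and N+PD30 libraries deviated together (r 0.17, 0.294 and 0.567 across genes), so those numbers were taken as pairs, although PD30 2 and N+PD30 1 reached 0.333. The design was set without the block. With that replicate block, 536 genes were called higher and 104 lower, against 480 and 75 without it. On simulated counts for Nutlin against DMSO over 15766 genes, 44% of genes changed 2-fold and 94% of those changed 3-fold were called. A 2-fold change lies on the fold threshold itself, and 81.25% of the genes changed 2-fold that were tested passed the adjusted p alone. Only 50 genes were changed at each simulated fold of 2, 3, 4 and 8. In the data 4198 genes were higher and 4416 lower by the adjusted p alone, so the adjustment differs and these rates need not hold there.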

Additional observations from a re-analysis of the deposited data

How the results depend on the processing

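For Nutlin against DMSO, the balance of directions moved with total-count and upper-quartile scaling. DESeq2, run without the count filter, called 2371 genes higher and 1315 lower, its size factors in edgeR 1978 and 1288, total-count scaling 1723 and 1696, and upper-quartile scaling 2164 and 1059. The share of calls that were higher was thus 64.3%, 60.6%, 50.4% and 67.1%, against 59.5% with TMM, and 65.9% without a filter on low counts (2872 and 1488). Total-count scaling called 1723 of the 1950 genes called higher with TMM, and upper-quartile scaling 1059 of the 1327 called lower. The adjusted p alone gave 4198 and 4416 genes, and a log2 threshold of 2 gave 896 and 155. Leaving out single libraries gave 1944 to 2169 higher and 1196 to 1465 lower. The Nutlin and DMSO numbers did not pair the libraries (r -0.185, 0.21 and 0.18), and the replicate block gave 1943 and 1342. For N+PD30 against PD30, total counts called 120 lower, the adjusted p alone called 1333 higher and 850 lower, and leaving out single libraries gave 284 to 669 higher and 34 to 125 lower. In each case the cause was not tested.

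No called gene among those named changed direction under any alternative run. Of those not called, CDK6 turned to -0.08 with total counts and -0.04 without Nutlin 1, and CDK1 to 0.09 with upper-quartile scaling and to 0.02 to 0.05 without DMSO 3, Nutlin 2 or Nutlin 3. CHD4, COL27A1, ESCO2, PPAT, RAD51C, TGFB3, TM7SF2, TNFRSF11B, TOP3A and TP53BP2 lay near the fold threshold and lost their call in at least 1 setting, and NDUFS7 gained one in 2. The list medians of the MYC network, cholesterol, TGF-beta, WNT and Hippo, and NF-kB lists lay near 0 and changed sign with scaling.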
